A study of Mus musculus with 6 samples.

Results

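Transcripts of salivary gland acinar and duct cells were followed in bulk RNA of the mouse temporomandibular joint, the hinge between the mandible and the temporal bone, which lies next to the parotid gland. The 31 genes were selected on earlier results of these same libraries, KO against WT. Their differences between the groups are therefore given as a description and support nothing further. Of the 31, 30 are rows of the table of 22032 genes, and Muc19 was not analysed here. They divide into 16 acinar and secreted products, 5 duct and surface genes, 5 ion and water transport genes, 2 receptors and 2 regulators. The oxidase Duox2 is placed with the transport genes.

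The study compared joint tissue of Igf2bp2-KO mice with that of Igf2bp2-WT littermates, both aged 10 weeks, with 3 libraries a group. The labels name no treatment, strain, sex or pooling, and they do not say which piece of Igf2bp2, the gene of an RNA-binding protein, was deleted. For the targeted gene the 3 KO libraries had 13, 14 and 10 counts and the 3 WT libraries 38, 20 and 24. KO 1 and KO 3 differed by no more than the counting noise of read pairs, with a median ratio of observed to counting variance of 0.941, and so did WT 2 and WT 3 at 0.964. Each such pair was summed and counted as 1 sample, which left n = 2 samples per group. Fits without KO 2 or without WT 1 thus hold 1 sample in that group, so a call lost there does not single out that library's values. Total counts were 28551236 to 35094127 a library, of which mitochondrial genes took 85.3% to 90.8%, and the nuclear total was 4604575 to 4899680 in KO libraries against 2625472 to 3205190 in WT libraries. Levels are CPM, read counts relative to library totals scaled by the trimmed mean of M-values, and log2 fold changes are KO minus WT with a standard error (SE). Of markers of the labelled joint, chosen after values had been seen, the cartilage genes Col2a1 and Acan were low, at 0.808 to 1.67 and 0.488 to 1.31 CPM over the 6 libraries. The bone genes Col1a1 and Bglap were higher in every KO library, at 489 to 559 and 43.8 to 45.8 CPM in KO and 224 to 263 and 12.2 to 18.2 CPM in WT. So was Prg4, the lubricin of joint surfaces, at 42.0 to 49.2 CPM in KO and 10.4 to 11.9 CPM in WT. In bulk RNA, fewer cells of a type and less RNA per cell cannot be told apart.

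Saliva is made in acini, whose cells pack enzymes, mucins and proline-rich proteins into granules and drive water across the epithelium by secreting chloride. Ducts then modify the fluid and add further proteins. Acetylcholine from parasympathetic nerves starts fluid secretion through muscarinic receptors, and the transcription factor Mist1, encoded by Bhlha15, maintains the secretory form of acinar cells.

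Salivary product transcripts were present in all 6 libraries and far higher in KO. Summed over the 16 products, the level was 646, 611 and 646 CPM in the KO libraries and 47.1, 47.3 and 52.4 CPM in the WT libraries. The KO libraries were close together, as were the WT libraries, and the groups did not overlap. As raw counts the products held 25147, 25752 and 25585 counts in KO and 1380, 1083 and 1349 in WT. By edgeR's quasi-likelihood test at a false discovery rate (FDR) of 0.05, 23 of the 29 members that passed the low-count filter were called higher in KO and none lower. Over all 14632 tested genes, 9.15% were called higher and 8.48% lower. In 24 of the 30 members every KO library lay above every WT library, though the 3 libraries of a group stand for n = 2 samples. Such separation held for 19.1% of all tested genes. The earlier results that chose the members came from the same contrast, so nothing is read from these shares. The median log2 fold change of the 29 was 3.57, or 3.24 with Prol1, which had no WT count, set against a floor of 3 counts, and that of all tested genes was -0.01.

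**Figure D1:**
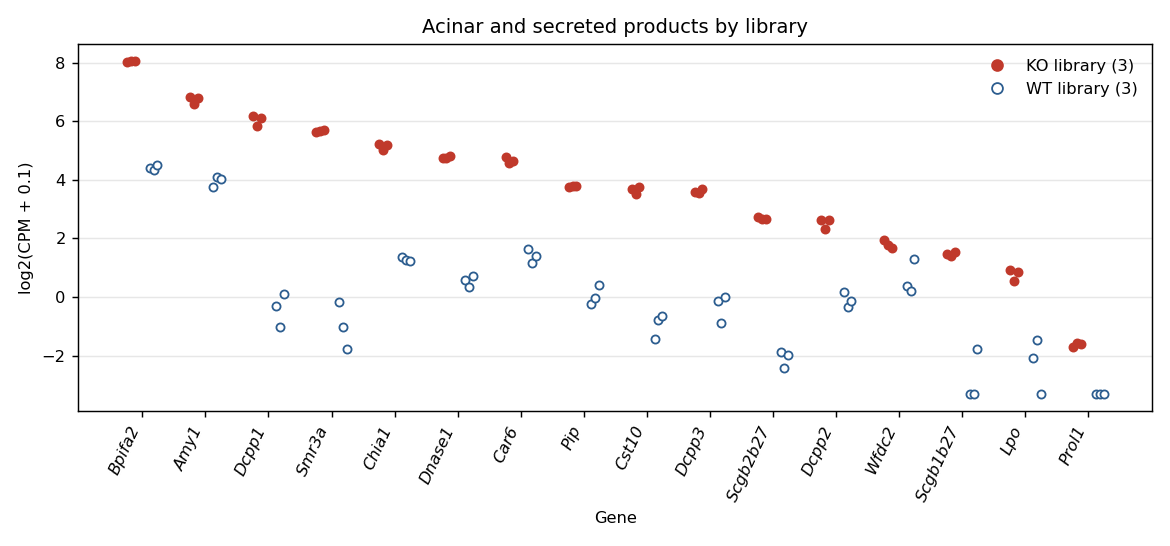
Level of each of the 16 acinar and secreted products in each library, as log2 of CPM plus 0.1, with genes on the horizontal axis ordered by KO level. Filled points are the 3 KO libraries and open points the 3 WT libraries. In every product the filled points lie above the open ones, with the smallest gap in Wfdc2.

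The most abundant product was Bpifa2, the parotid secretory protein of the BPI-fold family. It had 258, 268 and 265 CPM in the KO libraries and 21.0, 19.9 and 22.5 CPM in the WT libraries. All 3 KO values thus lay above all 3 WT values, and the spread within each group was small. The sample means were 266 ± 4.61 and 21.2 ± 0.226 CPM (SD, n = 2). On the log2 scale KO exceeded WT by 3.65 (SE 0.14). Amy1, the salivary amylase that cuts starch, was next, with 114, 97.2 and 111 CPM in KO and 13.3, 17.1 and 16.1 in WT. Its log2 fold change of 2.81 (SE 0.14) was among the lowest of the products.

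Dcpp1, Dcpp2 and Dcpp3 encode demilune cell and parotid proteins, secreted proteins of serous cells, from 3 genes that lie side by side. Dcpp1 had 72.5, 56.5 and 68.5 CPM in the KO libraries and 0.716, 0.393 and 0.970 in the WT libraries. Dcpp3 had 12.0, 11.6 and 12.6 CPM in KO and 0.818, 0.437 and 0.893 in WT. For Dcpp2 the values were 6.16, 4.95 and 6.13 CPM in KO and 1.02, 0.699 and 0.815 in WT. The 3 genes were thus at similar levels in WT and apart in KO, where Dcpp1 was the highest. Their log2 fold changes were 6.49 (SE 0.18), 4.02 (SE 0.18) and 2.68 (SE 0.22) for Dcpp1, Dcpp3 and Dcpp2. Within their longest transcripts 19.9%, 26.2% and 21.7% of stretches of 100 bases in Dcpp1, Dcpp3 and Dcpp2 also occur in another gene of the trio. The rule for reads that map to several places is not given, so the split among the 3 genes is uncertain.

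The promoter windows of the Dcpp genes, from 250 bases before to 50 bases after the RefSeq start, are shown because the 3 genes had unlike changes beside nearly alike windows. Aligned pairwise, Dcpp1 and Dcpp2 were 96.9% identical with 9 substitutions, Dcpp1 and Dcpp3 97.6% with 7, and Dcpp2 and Dcpp3 97.7% with 7. Capitals mark the bases that differ from, or have no partner in, either of the other windows (17 in each sequence), on build GRCm38.p6, 5′ to 3′ on the plus strand:
Dcpp1, chr17:23880626-23880925 (+): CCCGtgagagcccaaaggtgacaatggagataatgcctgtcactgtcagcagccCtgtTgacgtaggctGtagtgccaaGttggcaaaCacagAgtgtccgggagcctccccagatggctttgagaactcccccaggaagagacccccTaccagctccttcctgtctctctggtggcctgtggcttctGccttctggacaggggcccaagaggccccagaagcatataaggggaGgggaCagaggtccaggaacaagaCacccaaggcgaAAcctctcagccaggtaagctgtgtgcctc
Dcpp2, chr17:23898472-23898771 (+): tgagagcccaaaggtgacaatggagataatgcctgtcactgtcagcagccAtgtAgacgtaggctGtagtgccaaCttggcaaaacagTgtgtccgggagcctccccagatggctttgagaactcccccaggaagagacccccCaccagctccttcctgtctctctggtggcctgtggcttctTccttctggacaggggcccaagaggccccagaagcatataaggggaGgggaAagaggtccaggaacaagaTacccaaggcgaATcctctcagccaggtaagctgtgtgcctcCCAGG
Dcpp3, chr17:23917208-23917507 (+): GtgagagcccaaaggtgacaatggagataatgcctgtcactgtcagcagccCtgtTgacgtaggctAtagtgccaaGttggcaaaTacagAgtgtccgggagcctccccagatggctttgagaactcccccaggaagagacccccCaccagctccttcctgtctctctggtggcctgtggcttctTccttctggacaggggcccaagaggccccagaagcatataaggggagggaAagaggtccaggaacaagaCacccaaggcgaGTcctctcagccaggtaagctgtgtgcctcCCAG
The runs of capitals at the ends reflect where the windows start and stop.

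Smr3a and Prol1 encode proline-rich secreted proteins and belong to one cluster of secretory genes. Smr3a had 1949, 2115 and 2048 counts in the KO libraries and 23, 9 and 5 in the WT libraries. The sample means were 50.8 ± 0.58 and 0.538 ± 0.352 CPM (SD, n = 2). Its log2 fold change was 6.70 (SE 0.26), and 6.37 to 7.46 over the other fits tried, the highest without WT 1. Of its stretches of 100 bases, 40.5% also occur in the gene model Gm28434, so its reads may be shared. Prol1 was scarce, with 8, 10 and 9 counts in KO and none in WT, 5.82-fold more than a floor of 3 counts summed over WT would give. Since 2 counts seem to come from each read pair, that fold is not a strict bound.

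Several members are secreted enzymes. Car6, a secreted carbonic anhydrase that buffers saliva, had 27.6, 23.9 and 25.1 CPM in KO and 3.03, 2.14 and 2.56 in WT (log2 fold change 3.24, SE 0.15). Chia1, an acidic chitinase, had 37.6, 32.6 and 36.8 CPM in KO and 2.49, 2.32 and 2.25 in WT (3.88, SE 0.14). Dnase1, which degrades DNA outside cells, had 26.6, 26.5 and 27.9 CPM in KO and 1.40, 1.18 and 1.55 in WT (4.28, SE 0.14). In each of these enzymes the groups were widely apart. Lpo, the peroxidase that makes hypothiocyanite from hydrogen peroxide, was less abundant, with 70, 58 and 68 counts in KO and 4, 6 and 0 in WT. The sample means were 1.57 ± 0.273 and 0.130 ± 0.00912 CPM (SD, n = 2), a fold of 12.1. The log2 fold change of Lpo was 3.02 to 4.40 over the other fits tried, the highest without WT 2.

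Among the small secreted proteins, Pip, the prolactin-inducible protein, had 13.5, 13.7 and 13.7 CPM in KO and 0.750, 0.874 and 1.24 in WT (log2 fold change 3.86, SE 0.18). Cst10, a cystatin that inhibits cysteine proteases, had 12.7, 11.4 and 13.5 CPM in KO and 0.273, 0.481 and 0.543 in WT (4.86, SE 0.23). These 2 genes did not overlap between groups. The secretoglobins Scgb2b27 and Scgb1b27 encode partner subunits of androgen-binding proteins and are neighbours on chromosome 7. Scgb2b27 had 252, 261 and 249 counts in KO and 5, 2 and 4 in WT, with a log2 fold change of 5.45 (SE 0.27). Scgb1b27 had 105, 107 and 110 counts in KO and 0, 0 and 5 in WT. Its fitted change of 5.33 (SE 0.47) rests on the 5 counts of WT 3, without which no WT count remains, and was 4.67 without WT 1. The smallest change of the products was that of Wfdc2, a protein with whey acidic protein domains found in many airway and gland epithelia. It had 3.72, 3.37 and 3.05 CPM in KO and 1.19, 1.05 and 2.37 in WT (1.16, SE 0.22).

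The make-up of the product pool differed between groups as well as its size. Bpifa2 held 39.9% to 44.0% of the product counts in KO and 42.0% to 44.6% in WT, so the ranges overlapped. Amy1 held 15.9% to 17.7% in KO and 28.3% to 36.2% in WT, and Wfdc2 0.473% to 0.577% in KO and 2.22% to 4.52% in WT. Dcpp1 took 9.25% to 11.2% in KO and 0.831% to 1.85% in WT, and Smr3a 7.75% to 8.21% and 0.371% to 1.67%. Chia1 held 5.35% to 5.83% in KO and 4.30% to 5.29% in WT, and Car6 3.89% to 4.27% and 4.52% to 6.45%. These shares are of 1 whole, so a higher share of one product lowers those of the others.

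**Figure D2:**
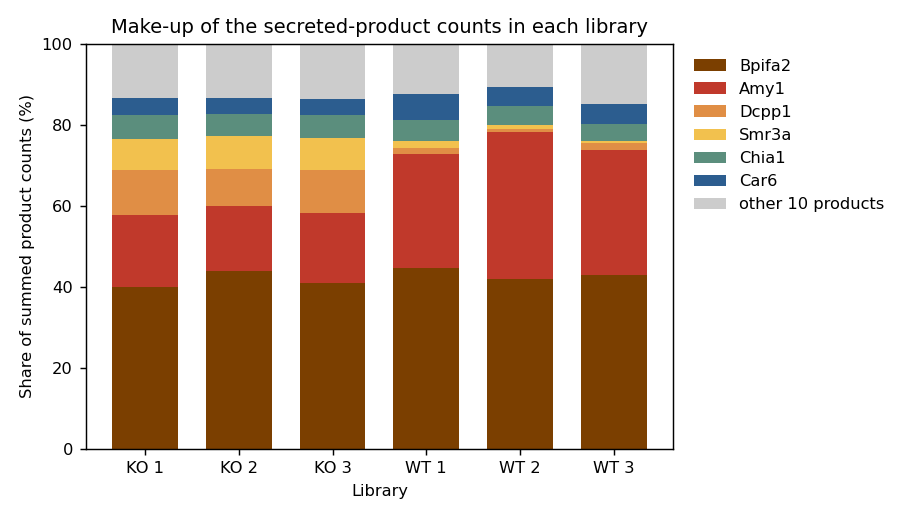
Share of the summed counts of the 16 products, in percent, taken by each of the 6 products largest in KO 1, with the other 10 in grey, 1 bar per library. Bpifa2 takes between 39.9% and 44.6% in all 6 libraries, while Amy1 is wider and Dcpp1 and Smr3a are narrower in the WT bars.

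Per length, as CPM per kilobase of the longest transcript, Bpifa2 was first of the 30 members in both groups, at 272 in KO and 21.7 in WT. The order below it differed. In KO it went on with Dcpp1 at 103, Smr3a at 80.0, Amy1 at 53.1 and Chia1 at 20.9 CPM per kilobase. In WT the next were Amy1 at 7.57, Wfdc2 at 1.74, Car6 at 1.73 and Chia1 at 1.42 CPM per kilobase, and Wfdc2 and Car6 differed by less than their spread between libraries. Dcpp1 stood at place 8 and Smr3a at place 10 in WT. Between WT libraries Dcpp1 varied 2.47-fold and Smr3a 4.04-fold, so these places are not firm. The receptors Chrm1 and Chrm3 were at 0.0585 and 0.0251 CPM per kilobase in KO, places 29 and 30.

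Duct and surface genes were less uniform. Klk1, the tissue kallikrein of duct cells, had 7.75, 6.90 and 7.45 CPM in KO and 0.477, 0.306 and 1.05 in WT (log2 fold change 3.57, SE 0.22). Over the other fits tried its change was 3.27 to 4.17, the highest without WT 3. Of its stretches of 100 bases 6.08% are shared with other kallikrein genes. Krt7, a keratin of simple and duct epithelia, had 5.91, 5.88 and 5.02 CPM in KO and 2.22, 2.27 and 2.60 in WT (1.27, SE 0.17). Klk1 and Krt7 were the 2 of the 5 that were called, and their groups did not overlap. Muc1, a mucin of the apical membrane, had 23, 20 and 19 counts in KO and 14, 6 and 11 in WT, with a log2 difference of 0.33 (SE 0.44).

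The remaining surface genes serve the transport of immunoglobulin A into saliva. Pigr, the receptor that carries it across the epithelium, had 12, 21 and 9 counts in KO and 16, 12 and 9 in WT (log2 difference -0.39, SE 0.49). Ccl28, a chemokine that draws plasma cells to mucosal glands, had 18, 23 and 14 counts in KO and 14, 5 and 0 in WT (0.84, SE 0.62). Over the other fits tried the difference of Ccl28 was 0.38 to 2.18, the highest without WT 1. Neither was called, and in both the libraries of the groups overlapped. Plasma cell genes gave 1 call among 5 tested of 10 listed: Irf4, a transcription factor also used by other immune cells, rose by 1.07 (edgeR FDR 0.00598). Of all tested genes 9.15% were called higher and 8.48% lower. Jchain, which joins immunoglobulin A into dimers, had 8, 13 and 7 counts in KO and 10, 6 and 14 in WT.

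The ion and water transport group, in which Duox2 is placed, ran from no difference to one of the largest. Apart from Duox2, the largest log2 fold change of the group was 1.76, for Aqp5. Duox2, an oxidase that supplies hydrogen peroxide to peroxidases such as Lpo, had 155, 156 and 168 counts in KO and 4, 0 and 0 in WT. Its log2 fold change of 6.17 (SE 0.51) rests in WT on the 4 counts of WT 1. Aqp5, the water channel of the apical membrane of acinar cells, had 27, 31 and 21 counts in KO and 7, 3 and 5 in WT (1.76, SE 0.48). Kcnn4, a calcium-activated potassium channel, had 49, 40 and 44 counts in KO and 13, 12 and 11 in WT (1.22, SE 0.35). In these 3 genes the groups did not overlap. Without KO 2, Aqp5 and Kcnn4 were not called, and Kcnn4 was also not called without KO 1, without WT 1 and without WT 3.

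Slc12a2, the sodium, potassium and chloride cotransporter that loads acinar cells with chloride, had nearly equal means in the groups. Its level was 7.99, 8.46 and 11.3 CPM in KO and 8.05, 11.2 and 8.46 in WT, with a log2 difference of 0.02 (SE 0.14). Cldn10, a tight junction protein with isoforms selective for sodium or chloride, had 34, 46 and 53 counts in KO and 17, 17 and 28 in WT (0.51, SE 0.32). In both genes the libraries of the groups overlapped. Per length Slc12a2 stood at place 6 of the members in WT, at 1.37 CPM per kilobase, and at place 16 in KO, at 1.40. Its place in WT is not firm, since Chia1 at 1.42 and Dcpp2 at 1.30 stood beside it.

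Receptors and regulators were scarce in all libraries. Chrm1, the M1 muscarinic receptor, had 9, 19 and 13 counts in KO and 0, 2 and 0 in WT. That is a ratio of 13.3, with a 95% exact counting interval of 2.18 to 561 for 21 read pairs against 1, and it was not called without KO 2. Chrm3, the M3 receptor that drives fluid secretion, had 3, 0 and 14 counts in KO and 2, 0 and 2 in WT and did not pass the low-count filter. Bhlha15 had 8, 23 and 21 counts in KO and 2, 2 and 4 in WT (log2 fold change 2.12, SE 0.62). It was not called when KO 2, WT 1 or WT 2 was left out. Elf5, an ETS factor of secretory epithelia such as the mammary and salivary gland, had 13, 12 and 8 counts in KO and 5, 0 and 4 in WT (1.20, SE 0.66) and was not called. In Chrm1, Bhlha15 and Elf5 every KO library lay above every WT library, as in 19.1% of all tested genes. The 3 libraries of a group stand for 2 samples.

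**Figure D3:**
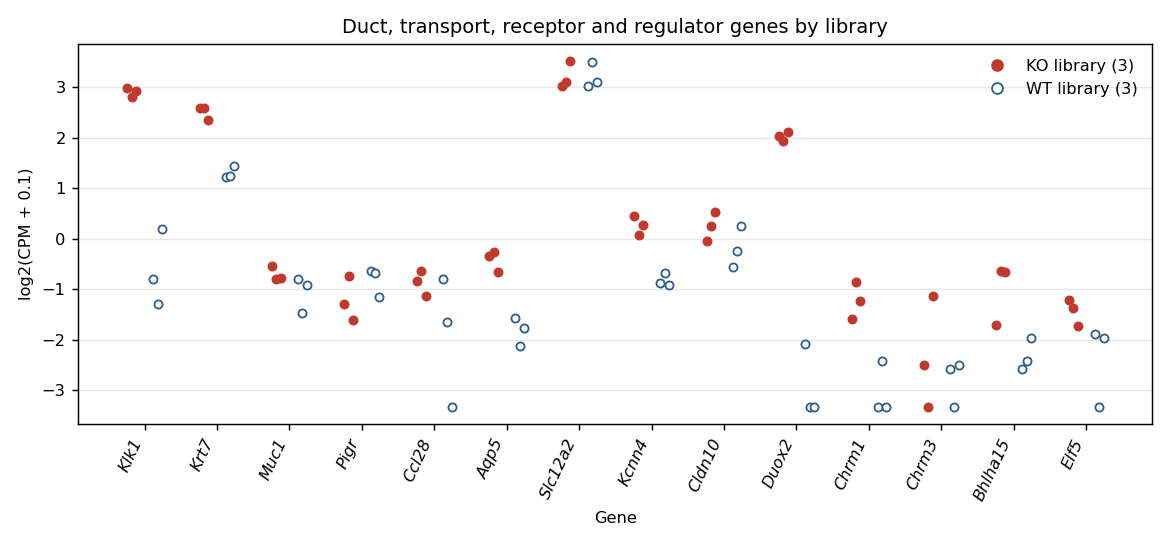
Level of the 14 duct, transport, receptor and regulator genes in each library, as log2 of CPM plus 0.1 (a library without counts lies at the lowest position). Filled points are the 3 KO and open points the 3 WT libraries. Klk1, Krt7 and Duox2 stand apart between groups, while the points of Muc1, Pigr, Ccl28, Slc12a2, Cldn10 and Chrm3 intermingle.

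Other genes of salivary glands were listed by their known roles. Of 75 such genes 67 were rows and 48 were tested, of which 9 rose and 5 fell, with a median log2 fold change of 0.19. For this count and those of the lists below, the shares over all tested genes were 9.15% higher and 8.48% lower. Among other salivary products 2 of 8 tested rose and 1 fell. Prpmp5, a proline-rich protein, had 14, 19 and 16 counts in KO and 0, 2 and 2 in WT and rose by 2.98 (edgeR FDR 0.0181). That call was lost without KO 2 or WT 1, fits with 1 sample in that group. Klk1b26, a kallikrein of the granular ducts of the submandibular gland, rose by 1.74 (edgeR FDR 0.0437). It did not pass when KO 1, WT 2 or WT 3 was left out (FDR 0.0514 to 0.0923), nor without KO 2 or WT 1. Muc5b, a gel-forming mucin of airway and salivary mucous cells, fell by 1.19 (edgeR FDR 0.0102), a call also lost without KO 2 or WT 1. Smgc, a product of the neonatal submandibular and the sublingual gland, had 2 counts in all, both in WT 1. The growth factor Egf, made in granular ducts, had a log2 difference of 0.22 and did not pass.

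Of 18 tested genes of fluid transport outside the members, 5 rose and 2 fell. Kcnma1, the large-conductance potassium channel, rose by 1.46 (edgeR FDR 0.0046) and Itpr2, a calcium release channel, by 0.93 (FDR 0.000211), while Itpr3, its relative, fell by 0.69 (FDR 0.0044). Ano1, the chloride channel of the acinar apical membrane, had 197, 215 and 165 counts in KO and 111, 84 and 86 in WT, a log2 difference of 0.42 that did not pass (FDR 0.0982). The most abundant gene, Aqp1, the water channel of endothelium and red cells, rose by 0.84 (FDR 0.000623). It was not called without KO 2, which left 1 KO sample. Of 7 tested receptors none rose by edgeR (none at an unadjusted p under 0.05) and P2rx7, an ATP-gated channel, fell by 1.60 (FDR 0.000118). Of 15 tested regulators Etv1 (1.19, FDR 0.000379) and Pax9 (0.82, FDR 0.0353) rose, and Sox10, which marks acinar cells and also Schwann cells, fell by 1.61 (FDR 1.26e-05). Leaving out KO 1 or WT 3 ended the call of Pax9 (edgeR FDR 0.0700 and 0.0968), as did leaving out KO 2 or WT 1. Xbp1, which expands the secretory apparatus, had 9.63 CPM in KO and 10.0 CPM in WT and did not pass.

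Genes shared by epithelia in general were measured beside the products. Of all tested genes 9.15% were called higher and 8.48% lower. The summed level of 16 luminal epithelial genes was 23.8 to 26.9 CPM in KO and 19.7 to 21.1 CPM in WT, with 2 of 15 tested members higher and 1 lower. Prom1 and Krt19 rose by 1.91 and 0.97 (edgeR FDR 0.000139 and 0.00615), Cdh1, the junction protein E-cadherin, fell by 0.91 (FDR 0.00244), and Epcam had a log2 difference of -0.32 and did not pass. The 18 genes of secretory granules and the endoplasmic reticulum summed to 108.9 to 109.2 CPM in KO and 91.9 to 108.1 CPM in WT, with 2 higher and 1 lower. Stx3, a syntaxin of apical exocytosis, rose by 1.08 and Herpud1 by 0.78 (edgeR FDR 0.000133 and 0.000243). Rab27b, a granule GTPase, fell by 1.12 (edgeR FDR 0.0266), a call lost without KO 2 or WT 1, fits with 1 sample in that group. Myoepithelial and basal genes, which include the smooth muscle genes Acta2 and Myh11, summed to 112 to 115 CPM in KO and 81.5 to 85.6 CPM in WT, with 2 of 8 tested higher and 1 lower. The 2 were Myh11 and Acta2 (0.69 and 0.45, edgeR FDR 0.000797 and 0.0135), and without them the list summed to 18.3 to 18.5 CPM in KO and 19.6 to 20.2 CPM in WT. Krt5, a keratin of basal cells, fell by 0.49 (FDR 0.0199). All 3 calls, of Myh11, Acta2 and Krt5, were lost without KO 2, which left 1 KO sample.

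Markers of other glands and of other tissue moved with or against the products in the same libraries. The shares over all tested genes were 9.15% called higher and 8.48% lower. Autonomic neuron genes summed to 60.0 to 62.9 CPM in KO and 7.65 to 7.88 in WT. All 12 tested of 15 were higher, with a median log2 fold change of 8.28. The list mixes cholinergic genes such as Slc5a7 with noradrenergic ones such as Dbh. It is therefore not particular to the parasympathetic ganglia that supply salivary glands. Secretions of nasal and lacrimal glands went the other way, at 15.1 to 15.8 CPM in KO and 79.2 to 82.7 CPM in WT, with 19 of 22 tested lower and none higher. Fast muscle genes summed to 7533 to 8797 CPM in KO and 4969 to 6886 CPM in WT, with 5 of 12 higher. Of those 5, Atp2a1, Acta1 and Tnnt3 were lost without KO 2, and Tnnt3 also without WT 1, fits with 1 sample in that group. Erythroid genes summed to 233 to 298 and 270 to 360 CPM, with none of 7 called by edgeR (none at an unadjusted p under 0.05, smallest FDR 0.195). The part of these differences in the salivary result was not tested. Of genes listed for other amylase- or peroxidase-rich organs, 3 of 11 for the pancreas, 2 of 6 for milk and 5 of 6 for the thyroid were rows. Amy2a5 of the pancreas had 1 count in all, the milk protein genes Csn3 and Lalba 1 and 2, and the thyroid gene Tg at most 13 counts in a library. The thyroid list summed to 0.732 to 1.21 CPM in KO and 0.512 to 0.737 CPM in WT, and its 1 tested gene did not pass.

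**Figure D4:**
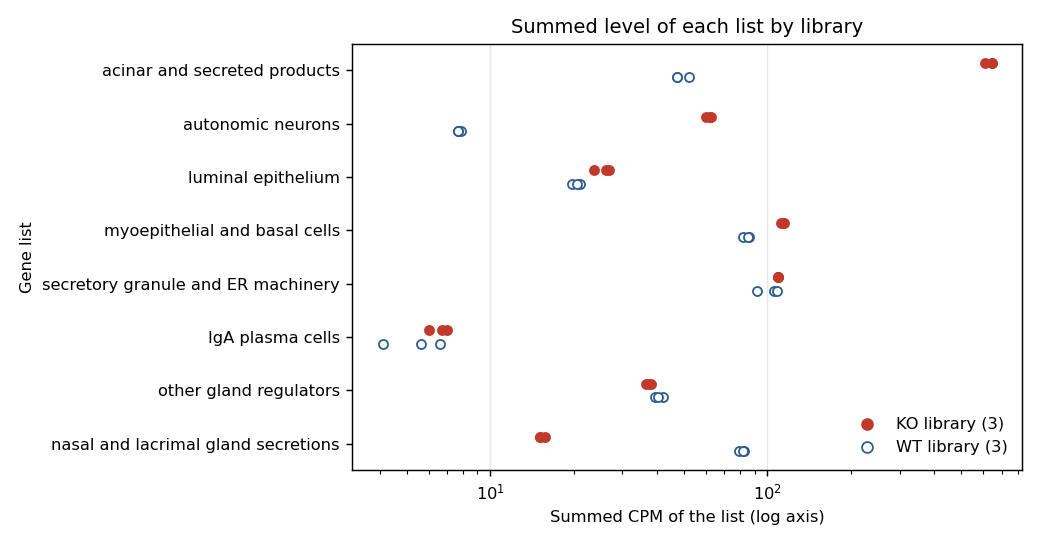
Summed CPM of 8 gene lists in each library, on a log axis, with filled points for the 3 KO and open points for the 3 WT libraries. The products and the autonomic neuron genes are far higher in KO and the nasal and lacrimal secretions far lower. The epithelial, secretory machinery, plasma cell and regulator lists differ much less. Of these, the luminal and the myoepithelial and basal lists are higher in KO without overlap, and the regulator list is lower without overlap.

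Position in the genome was not used to choose the members, and several sit in clusters of secretory genes. With RefSeq order on GRCm38.p6, and in a comparison chosen after values had been seen, the 4 protein-coding genes on each side of the 30 members gave 210 other genes. Of these 121 were tested, 11 rose and 21 fell, and their median log2 fold change was -0.03. Over all tested genes 9.15% were called higher and 8.48% lower. The tooth genes and the BPIF neighbours called lower, described below, are among the 21. Duoxa2, which is needed for Duox2 to mature and lies beside it, had 74, 84 and 68 counts in KO and 0, 0 and 2 in WT (edgeR FDR 5.73e-06). That is a ratio of 73.0, with a 95% exact counting interval of 12.8 to 2910. BC037156, near Smr3a, had 540, 530 and 542 counts in KO and 65, 28 and 39 in WT and rose by 2.93 (edgeR FDR 6.85e-07). The tooth genes Odam, Amtn, Ambn and Enam, which flank Smr3a and Prol1, fell, with log2 fold changes of -2.45, -2.62, -2.09 and -1.58 (edgeR FDR 1.3e-07, 5.36e-08, 5.33e-07 and 1.74e-06).

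Most tested relatives of Bpifa2 fell. The BPIF family had 12 rows and 10 tested genes: Bpifa2 was the 1 that was higher, 7 fell and 2 did not pass. Each of the 7 is also counted above, as a nasal or lacrimal secretion, as a neighbour of a member, or as both. Bpifa1, a neighbour secreted by airway epithelium, had 56, 62 and 64 counts in KO and 234, 245 and 293 in WT and fell by 2.67 (edgeR FDR 6.92e-07). Bpifa6 had 5, 0 and 0 counts in KO and 47, 38 and 41 in WT (FDR 2.5e-05). Bpifb4 and Bpifb3 fell, with log2 fold changes of -3.08 and -1.52 (edgeR FDR 6.17e-06 and 0.000177), and Bpifb1 had a log2 difference of -0.80 and did not pass (FDR 0.0678).

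**Figure D5:**
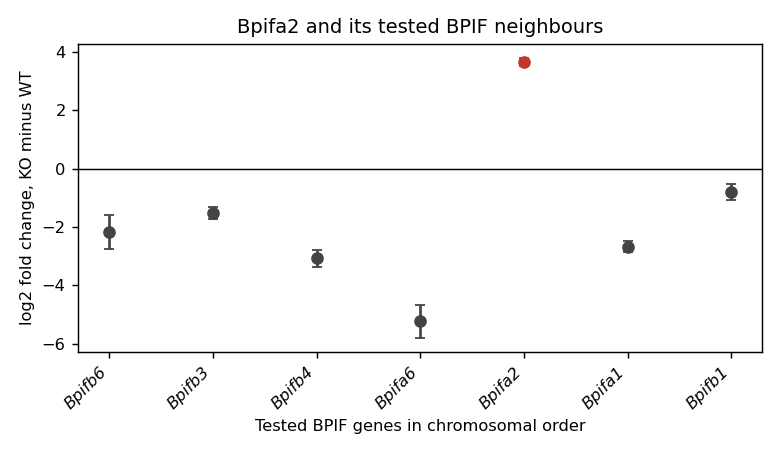
Log2 fold change, KO minus WT, of Bpifa2 (red) and its tested BPIF neighbours (dark) in chromosomal order, with bars of 1 SE. Bpifa2 is at 3.65 and each neighbour shown lies below 0.

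Promoter windows of 300 bases were matched by symbol for 28 of the 30 members, 33 windows in all, and searched on both strands. The letters TATAAA, the core of the TATA box, stood in 8 windows (24.2%) of 7 members, and in 9.92% of the 21116 windows of all genes in the table. The matches of Scgb2b27 and Dnase1 read on the reverse strand of the window only, and that of Scgb1b27 lay downstream of the start. The E-box CATATG was in none and in 2.50%, the E-box CAGCTG in 12.1% and 16.5%, and the ETS core GGAAGT in 12.1% and 25.0%. A match is a description of the letters, and windows without one say nothing of the factors. Pip and Chia1 are shown as 2 products with the TATA letters, in capitals where they read on the plus strand, upstream of the RefSeq start (first letter at -28 in Pip and -43 in Chia1), on GRCm38.p6:
Pip, chr6:41847299-41847598 (+): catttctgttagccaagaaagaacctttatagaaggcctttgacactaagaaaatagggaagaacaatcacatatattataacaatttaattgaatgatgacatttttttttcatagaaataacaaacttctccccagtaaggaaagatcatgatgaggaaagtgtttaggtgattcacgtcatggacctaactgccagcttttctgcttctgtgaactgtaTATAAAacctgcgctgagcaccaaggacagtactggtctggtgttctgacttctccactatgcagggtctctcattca
Chia1, chr3:106113132-106113431 (+): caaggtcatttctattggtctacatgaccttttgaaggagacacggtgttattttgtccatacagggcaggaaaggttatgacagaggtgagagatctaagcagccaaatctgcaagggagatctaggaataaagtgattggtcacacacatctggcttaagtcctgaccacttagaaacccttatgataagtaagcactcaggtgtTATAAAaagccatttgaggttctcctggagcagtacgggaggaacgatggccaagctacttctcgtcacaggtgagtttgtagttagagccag
The abundant products Bpifa2, Smr3a, Car6 and the Dcpp genes hold no TATAAA in their windows, though the Dcpp windows hold the similar letters tataag.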

How the data were processed

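The deposited values are unnormalized read counts by gene symbol, in 1 table, for 3 KO and 3 WT libraries made with an mRNA isolation kit. HISAT2 2.1.0, StringTie 2.1.5 and mm39 are listed, without roles, per the submitters' processing notes. Annotation, strand setting and multi-mapping rule: not given in the sources used here. All rows were fitted together with edgeR 4.0.16 in R 4.3.3 (filterByExpr, minimum count 10, TMM, robust quasi-likelihood, FDR 0.05 over all tested genes), after within-group library pairs with a variance ratio under 1.1 had been summed. The ratio used nuclear genes of at least 20 summed counts, with 2 counts per read pair, since genes at 2 counts outnumbered genes at 1 by 4.69 to 5.06 times. SE is the absolute change over the square root of F. Whether each library is 1 animal is not labelled, and p-values measure no more than how far these samples spread, possibly for technical reasons. CPM per sample uses the factors of the summed samples, CPM per library those of the 6 libraries. Intervals and floors cover counting error only. Lengths and shared stretches come from GENCODE M21 transcripts, promoters from RefSeq on GRCm38.p6, and protein sequences were not used here. Members, lists and tests were chosen with earlier results of these data known. Named are all members and Igf2bp2, and, of other lists described, genes from among the up to 4 of smallest p and the most abundant. Not every such gene is named, and the neuron, nasal and lacrimal, and erythroid lists are given mainly as sums. Duoxa2, BC037156, the BPIF and tooth genes, Egf, Smgc, Ano1, Epcam and the markers of joint and of other organs were added after their values were seen. Biopython 1.88 aligned the windows. Other settings tried were DESeq2 1.42.0 size factors and Wald test, other filters, 6 separate libraries, the replicate number as a block, no mitochondrial genes and leaving out each library.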

Additional observations from a re-analysis of the deposited data

How the results depend on the processing

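The members called higher numbered 23 and none was lower. Leaving out KO 1, KO 3, WT 2 or WT 3 gave 20 to 21 higher, and the other settings with all libraries 18 to 23. None was called lower by edgeR or by the DESeq2 Wald test in any setting. The median of the tested members was 3.06 to 3.55 when 1 library was left out, the lowest without WT 3. Over all genes, 1339 were higher and 1241 lower. Leaving out 1 library gave 616 to 1348 higher and 533 to 1187 lower, with both lowest values without KO 2. The Wald test gave 738 lower, and it gave 5 of the other salivary gland genes higher against 9. Among fits with 1 library left out, calls were fewest without KO 2, which left 1 KO sample. That held for the members, all genes and the other salivary gland genes alike. Without KO 2 or without WT 1, 1 sample was left in that group, and call counts of such fits are not given. The cause of the other moves was not tested. In the Wald test Aqp5, Kcnn4 and Bhlha15 were not called, and Prol1 was not called without KO 2. Of the other named genes, Prpmp5, Klk1b26, Pax9, Rab27b and Krt5 did not pass the Wald test (DESeq2 adjusted p 0.0563, 0.196, 0.196, 0.0996 and 0.115). With the 6 libraries separate, 25 members were tested and 20 called. Libraries of the same replicate number did not deviate together (r = -0.11, -0.14 and 0.08 for numbers 1 to 3), so the numbers are not taken as pairs. With the replicate block 20 members were called higher and none lower, 1493 genes higher and 1448 lower, against 1745 and 1707 for the 6 libraries without it. No named gene changed sign where it was called. Low counts limit Chrm1, Chrm3, Bhlha15, Elf5, Prol1, Muc1, Pigr and Ccl28, each of which had at most 23 counts in any library.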
